A study of Mus musculus with 15 samples.

Results

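The 33 genes described here mark macrophages and monocytes, and were followed in RNA from whole mouse hearts. The set was drawn up by gene symbol, and all 33 were found among the 36727 genes of the deposited table. Where a symbol had more than 1 gene ID, the ID with the largest total was used, which concerned only Trem2, whose 2 IDs held the same value in every heart. The hearts came from 15 mice. There were 4 SIRT5OE mice after transverse aortic constriction (SIRT5OE TAC), 3 SIRT5OE mice after a sham operation (SIRT5OE sham), 4 wild-type mice after constriction (WT TAC) and 4 wild-type mice after a sham operation (WT sham). All were males of 4 to 8 months at surgery, and the hearts were taken 4 weeks later. TAC narrows the aorta and puts the left ventricle under pressure overload, and sham mice went through the operation with no band. SIRT5OE mice overexpress SIRT5, a mitochondrial sirtuin, from the CAGGS promoter in a cassette at the Col1A1 locus. Its stop element was removed by Sox2-Cre, so that the gene is overexpressed in the whole body, and the strain derives from 1 ES cell clone. WT mice were their littermates.

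Heart macrophages take up dying cells, complement-coated particles and iron, and they release signals that act on fibroblasts and cardiomyocytes. Those that settle in the tissue early in life renew themselves with little input from the blood and carry receptors such as Lyve1, Timd4 and Folr2. Monocytes that enter a stressed heart come in through the chemokine receptor Ccr2 and turn into macrophages there. In a whole heart these cells are a small part of the tissue, and a lower level of a marker from fewer cells and from less RNA per cell cannot be told apart.

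Levels are the authors' normalized counts, with 1 library per heart, and the values of a group are listed in the order of its replicate numbers. Every one of the 33 genes passed the filter of at least 10 normalized counts in at least 3 hearts, as did 16690 genes in all. In the first principal component, which held 35.8% of the variance of the 500 most variable genes, SIRT5OE TAC replicate 3 lay at 33.9, among the WT TAC hearts (19.4 to 49.9), whereas the other SIRT5OE TAC hearts lay between -6.90 and 2.54 and the sham hearts of both genotypes between -30.5 and -22.1. Results that rest on SIRT5OE TAC replicate 3 are therefore given with and without it. Genes of the mitochondrial genome took 27.9 to 35.0% of the normalized counts in SIRT5OE TAC hearts, 33.8 to 34.6% in SIRT5OE sham hearts, 19.8 to 27.2% in WT TAC hearts and 34.7 to 36.2% in WT sham hearts. Their part in the results below was not tested.

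Most of the macrophage markers were higher after TAC in WT hearts, with Lgals3, Trem2 and Ms4a7 in front, and Retnla and Timd4 were lower. In SIRT5OE hearts Adgre1, Aif1 and Trem2 passed the test as higher and Retnla as lower. Between the TAC groups the 3 chains of complement C1q were lower in SIRT5OE, by calls that did not hold under every setting tried. Differences are given on the scale of log2(normalized count + 1) with their SE, and a gene is said to have changed where the adjusted p of limma, taken over all 16690 genes, was under 0.05. In SIRT5OE TAC against SIRT5OE sham hearts, 3 of the 33 genes were higher and 1 was lower, where 3.12% of all genes were higher and 1.86% lower. In WT TAC against WT sham hearts, 23 were higher and 2 lower, where 17.3% of all genes were higher and 16.5% lower. With a log2 fold change over 1 as well, 2 were higher and 1 lower in SIRT5OE (1.45% and 0.527% of all genes), and 10 were higher and 2 lower in WT (6.58% and 4.95% of all genes). The median log2 fold change of the 33 genes was 0.48 in SIRT5OE and 0.84 in WT, while that of all genes was -0.01 in either genotype. At an unadjusted p under 0.05, 21 genes were higher and 1 lower in SIRT5OE, and 25 were higher and 2 lower in WT. The share of all genes at the unadjusted threshold was not taken in any comparison, so such counts have no background beside them. The groups did not overlap for 13 higher genes and 1 lower gene in SIRT5OE (12.6% and 11.8% of all genes), and for 22 higher and 2 lower genes in WT (16.2% and 15.5% of all genes). Whether TAC acted differently in the genotypes was tested by the interaction, which called none of the 33 genes, with 6 at an unadjusted p under 0.05. The counts of the genotypes were thus not shown to differ.

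**Figure D1:**
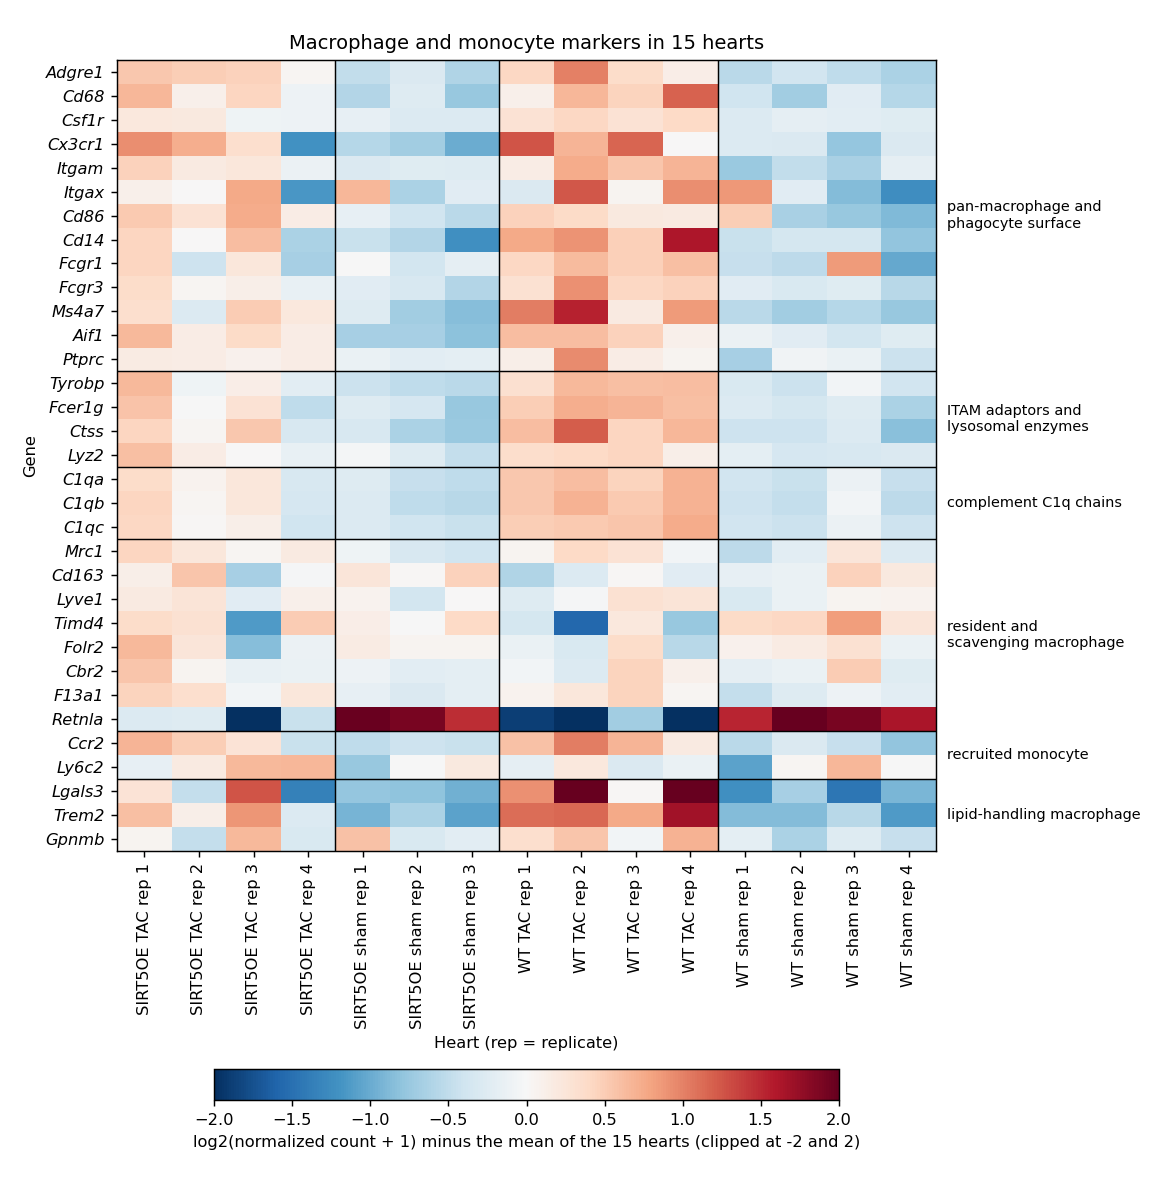
Colours give log2(normalized count + 1) of each of the 33 genes (rows, by role) in each of the 15 hearts (columns, by group) after subtracting the gene's mean over all hearts, clipped at -2 and 2. TAC columns are red in most rows above the resident group, most evenly in WT, and Retnla is blue in the 8 TAC hearts and red in the 7 sham hearts.

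Surface proteins of macrophages and other phagocytes made up the largest role group, with 13 genes. In SIRT5OE TAC hearts 2 of them were higher than in SIRT5OE sham hearts, and in WT TAC hearts 11 were higher than in WT sham hearts. The median log2 fold change of the 13 genes was 0.80 in SIRT5OE and 0.86 in WT. Adgre1, the adhesion receptor by which mouse macrophages are usually recognised, had 1098, 1072, 1044 and 783 in SIRT5OE TAC hearts, against 538, 619.9 and 501 in SIRT5OE sham hearts. It had 1013, 1522, 976 and 835 in WT TAC hearts, against 521, 583, 536 and 487 in WT sham hearts. Every TAC heart stood above every sham heart of its genotype, and WT TAC replicate 2 was the highest of all. The log2 fold change was 0.84 ± 0.18 (SE) in SIRT5OE (limma adjusted p = 0.0146) and 1.00 ± 0.16 in WT (adjusted p = 0.00032). Aif1, a calcium-binding protein of the macrophage cytoskeleton, had 220.4, 155, 184 and 155 in SIRT5OE TAC hearts, against 88.6, 88.5 and 78.8 in SIRT5OE sham hearts. It had 216, 215, 193 and 151 in WT TAC hearts, against 129, 119, 108 and 118 in WT sham hearts. Neither pair overlapped, and the SIRT5OE sham hearts also lay below all WT sham hearts. Its log2 fold change of 1.04 ± 0.19 in SIRT5OE (limma adjusted p = 0.0076) stood beside 0.69 ± 0.17 in WT (adjusted p = 0.0064).

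Csf1r, the receptor for the growth factors on which macrophages depend, had 2526, 2481, 2054 and 2018 in SIRT5OE TAC hearts, against 1943, 1799.9 and 1789.9 in SIRT5OE sham hearts. It had 2647, 2905, 2664 and 2852 in WT TAC hearts, against 1795, 1907, 1881 and 1826 in WT sham hearts. The WT TAC hearts were close together and well above their sham hearts, while SIRT5OE TAC replicates 3 and 4 lay just above the highest SIRT5OE sham heart. Its log2 fold changes were 0.29 ± 0.09 in SIRT5OE (limma adjusted p = 0.083) and 0.58 ± 0.09 in WT (adjusted p = 0.000187). Cd68, a glycoprotein of the phagocyte's lysosomal membrane, had 608, 409, 516 and 355 in SIRT5OE TAC hearts, against 255, 321 and 227 in SIRT5OE sham hearts. It had 409, 605, 523 and 864 in WT TAC hearts, against 291, 237, 328 and 256 in WT sham hearts. The TAC and sham groups were apart in both genotypes. The log2 fold changes were 0.80 ± 0.24 in SIRT5OE (limma adjusted p = 0.0605) and 1.06 ± 0.22 in WT (adjusted p = 0.00162). Cd14, a co-receptor for bacterial lipopolysaccharide, had 436, 326, 499 and 209 in SIRT5OE TAC hearts, against 237, 215 and 138 in SIRT5OE sham hearts. It had 547, 604, 452 and 992 in WT TAC hearts, against 239, 254, 255 and 187 in WT sham hearts. SIRT5OE TAC replicate 4 lay within the SIRT5OE sham range, and WT TAC replicate 4 was far above the rest. Its log2 fold changes were 0.86 ± 0.30 in SIRT5OE (limma adjusted p = 0.102) and 1.42 ± 0.28 in WT (adjusted p = 0.00113). Ms4a7, a membrane protein of the MS4A family carried by macrophages, had 312, 204, 349 and 286 in SIRT5OE TAC hearts, against 205, 151 and 136 in SIRT5OE sham hearts. It had 499, 714, 278 and 444 in WT TAC hearts, against 168, 150.5, 165 and 145 in WT sham hearts. The WT groups were apart, whereas SIRT5OE TAC replicate 2 met the highest SIRT5OE sham heart. Its log2 fold change in WT, 1.54 ± 0.24 (limma adjusted p = 0.000254), was the largest of the surface group, and in SIRT5OE it was 0.80 ± 0.26 (adjusted p = 0.0869).

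Among the integrins and Fc receptors, Itgam, the alpha chain of complement receptor 3, had 602, 494, 509 and 405 in SIRT5OE TAC hearts, against 359, 368 and 367 in SIRT5OE sham hearts. It had 483, 735, 643 and 700.5 in WT TAC hearts, against 261, 309, 277 and 384 in WT sham hearts. TAC and sham hearts did not overlap in either genotype, and the gap was wider in WT. On the log2 scale, TAC against sham gave 0.45 ± 0.17 in SIRT5OE (limma adjusted p = 0.144) and 1.05 ± 0.16 in WT (adjusted p = 0.000208). Fcgr3, a low-affinity receptor for IgG, had 1018, 804, 849 and 706 in SIRT5OE TAC hearts, against 674, 632 and 526 in SIRT5OE sham hearts. It had 971, 1483, 1046 and 1089 in WT TAC hearts, against 669, 638, 666 and 534 in WT sham hearts. Both pairs were apart, with WT TAC replicate 2 on top. Its log2 fold change was 0.46 ± 0.16 in SIRT5OE (limma adjusted p = 0.0992) and 0.86 ± 0.15 in WT (adjusted p = 0.000452). Cx3cr1, the fractalkine receptor of patrolling monocytes and many tissue macrophages, had 512, 446, 340.1 and 115 in SIRT5OE TAC hearts, against 181, 165 and 135 in SIRT5OE sham hearts. It had 643, 430.4, 602 and 271 in WT TAC hearts, against 222, 219, 156 and 221 in WT sham hearts. SIRT5OE TAC replicate 4 was the lowest of all 15 hearts while the other SIRT5OE TAC hearts were above their sham group, and the WT groups did not overlap. Its log2 fold changes were 0.95 ± 0.40 in SIRT5OE (limma adjusted p = 0.181) and 1.18 ± 0.37 in WT (adjusted p = 0.0225), and without WT TAC replicate 1 the WT call was lost (adjusted p = 0.0646), as it was without WT TAC replicate 3 (0.0503) or WT sham replicate 3 (0.0634).

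Cd86, a co-stimulatory ligand for T cells, had 251, 214, 293 and 193 in SIRT5OE TAC hearts, against 156, 132 and 119 in SIRT5OE sham hearts. It had 239, 227, 199.9 and 197 in WT TAC hearts, against 247, 111, 103 and 93.7 in WT sham hearts. WT sham replicate 1 was as high as the TAC hearts, while the 3 other WT sham hearts lay far below them, and the SIRT5OE groups were apart. As a log2 fold change this was 0.80 ± 0.27 in SIRT5OE (limma adjusted p = 0.1) and 0.75 ± 0.25 in WT (adjusted p = 0.0322), and the WT call was lost under 9 of the other settings, with adjusted p up to 0.103. Ptprc, the CD45 phosphatase of all leukocytes, had 579.9, 576, 546 and 575 in SIRT5OE TAC hearts, against 471, 445 and 453 in SIRT5OE sham hearts. It had 563, 991, 575 and 539 in WT TAC hearts, against 326, 493, 471 and 385 in WT sham hearts. The SIRT5OE TAC hearts were nearly level with each other and above their sham hearts, and WT TAC replicate 2 was far above the other WT TAC hearts. Its log2 fold change was 0.32 ± 0.19 in SIRT5OE (limma adjusted p = 0.35) and 0.64 ± 0.18 in WT (adjusted p = 0.0107). The remaining surface genes, Itgax, an integrin of dendritic cells and activated macrophages, and Fcgr1, the high-affinity IgG receptor, passed the test in no comparison.

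All 4 adaptors and lysosomal enzymes were higher in WT TAC than in WT sham hearts, and none passed the test in SIRT5OE, where each had an unadjusted p under 0.05. Tyrobp, the signalling adaptor of Trem2 and other receptors, had 777, 467, 541 and 428 in SIRT5OE TAC hearts, against 366, 347 and 338 in SIRT5OE sham hearts. It had 617, 779, 748 and 755 in WT TAC hearts, against 399, 365, 476 and 379 in WT sham hearts. Both pairs of groups were apart, with SIRT5OE TAC replicate 1 as high as the WT TAC hearts. Its log2 fold changes were 0.62 ± 0.18 in SIRT5OE (limma adjusted p = 0.0531) and 0.84 ± 0.16 in WT (adjusted p = 0.00106). Fcer1g, the gamma chain that Fc receptors signal through, had 741, 496, 606 and 348 in SIRT5OE TAC hearts, against 416, 394 and 293 in SIRT5OE sham hearts. It had 699.8, 827, 799.9 and 755 in WT TAC hearts, against 411, 390.3, 416 and 319 in WT sham hearts. SIRT5OE TAC replicate 4 lay among the SIRT5OE sham hearts, and the WT groups were far apart. Its log2 fold change was 0.54 ± 0.21 in SIRT5OE (limma adjusted p = 0.14) and 1.01 ± 0.19 in WT (adjusted p = 0.000954). Ctss, the cathepsin that trims invariant chain in antigen-presenting cells, had 1539, 1173, 1649 and 915 in SIRT5OE TAC hearts, against 911, 736 and 683 in SIRT5OE sham hearts. It had 1747, 2649, 1529 and 1798 in WT TAC hearts, against 855, 852, 941 and 639 in WT sham hearts. TAC hearts were above sham hearts in both genotypes, by a narrow gap in SIRT5OE. TAC and sham hearts differed on the log2 scale by 0.74 ± 0.21 in SIRT5OE (limma adjusted p = 0.0568) and 1.21 ± 0.20 in WT (adjusted p = 0.000302). Lyz2, the lysozyme of myeloid cells, had 13977, 10200.4, 9311 and 8302 in SIRT5OE TAC hearts, against 9007, 7708 and 6605 in SIRT5OE sham hearts. It had 11722, 12084, 12469 and 10019.6 in WT TAC hearts, against 8086, 7329.7, 7373 and 7505 in WT sham hearts. SIRT5OE TAC replicate 1 was the highest heart of all and replicate 4 lay within the SIRT5OE sham range, whereas the WT groups did not overlap. Its log2 fold changes were 0.41 ± 0.15 in SIRT5OE (limma adjusted p = 0.113) and 0.61 ± 0.14 in WT (adjusted p = 0.00299).

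The 3 chains of C1q, the molecule that starts the classical complement cascade and is made in tissues mainly by macrophages, rose together in WT TAC hearts. Their genes lie side by side on the minus strand of chromosome 4 (GRCm38), with C1qb at chr4:136880129-136886187, C1qc at chr4:136889804-136893065 and C1qa at chr4:136895917-136898803. C1qa had 2805, 2285, 2540.4 and 1741 in SIRT5OE TAC hearts, against 1828, 1586 and 1531 in SIRT5OE sham hearts. It had 3175, 3329, 2968 and 3533 in WT TAC hearts, against 1678, 1603, 2019 and 1590.1 in WT sham hearts. The WT TAC hearts were above all other hearts, SIRT5OE TAC replicates 1 to 3 were between them and the SIRT5OE sham hearts, and SIRT5OE TAC replicate 4 was within the sham range. Its log2 fold changes were 0.49 ± 0.14 in SIRT5OE (limma adjusted p = 0.0556) and 0.92 ± 0.13 in WT (adjusted p = 0.000123). C1qb had 3072, 2335, 2653 and 1814 in SIRT5OE TAC hearts, against 1882, 1605 and 1556 in SIRT5OE sham hearts. It had 3312, 3683, 3259 and 3693 in WT TAC hearts, against 1704, 1644, 2186 and 1578 in WT sham hearts. The order of the hearts was like that of C1qa, again with SIRT5OE TAC replicate 4 at the sham level. Its log2 fold change was 0.53 ± 0.15 in SIRT5OE (limma adjusted p = 0.0564) and 0.98 ± 0.14 in WT (adjusted p = 0.000145). C1qc had 2415, 1847, 1974 and 1376 in SIRT5OE TAC hearts, against 1504, 1373 and 1334 in SIRT5OE sham hearts. It had 2553, 2617, 2666 and 3020.0 in WT TAC hearts, against 1397, 1346, 1664 and 1357 in WT sham hearts. WT sham replicate 3 stood above the other WT sham hearts for all 3 chains, yet below every WT TAC heart. The log2 fold change of C1qc was 0.41 ± 0.15 in SIRT5OE (limma adjusted p = 0.109) and 0.92 ± 0.14 in WT (adjusted p = 0.000164).

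The 250 bases before the start of the genes as RefSeq places it were read by symbol from RefSeq (GRCm38.p6). Windows of 26 of the 33 genes were used, 32 in all. The other 7 genes, Csf1r and Cd14 among them, were left out of the motif counts, which therefore do not cover the whole set. The starts of RefSeq and GENCODE differ, and 20 windows lie partly or wholly inside the GENCODE gene, by 151 bases for C1qc and 58 for Retnla. The windows were searched on both strands for GAGGAA and AGGAAGT, letters of sites bound by PU.1, the ETS factor that sets up the myeloid lineage, and for TGACTCA, the AP-1 site. The first and second motif share letters, so that a single stretch can hold both. Fcgr3, Ly6c2 and Ptprc each have windows that overlap, so the shares of windows count some sites more than once. Overlapping windows of all genes were not merged either. GAGGAA was found in 15 of the 26 genes and in 53.1% of their windows, against 23.3% of the 32851 windows of all genes. AGGAAGT was found in 10 genes and 37.5% of the windows, against 7.69% of all windows, and TGACTCA in 3 genes and 9.38% of the windows, against 4.46% of all windows. These matches describe letters only. The windows of C1qb (chr4:136886201-136886450, minus strand) and C1qc (chr4:136892915-136893164, minus strand) are shown because these genes moved together and differed between the TAC groups. Capitals mark GAGGAA or AGGAAGT on either strand, overlapping in C1qc, and neither window holds TGACTCA.
C1qb: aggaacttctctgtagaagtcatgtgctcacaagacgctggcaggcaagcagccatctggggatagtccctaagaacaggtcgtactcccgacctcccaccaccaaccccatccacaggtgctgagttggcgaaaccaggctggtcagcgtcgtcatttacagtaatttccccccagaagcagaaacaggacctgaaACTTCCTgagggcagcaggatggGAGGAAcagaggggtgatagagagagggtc
C1qc: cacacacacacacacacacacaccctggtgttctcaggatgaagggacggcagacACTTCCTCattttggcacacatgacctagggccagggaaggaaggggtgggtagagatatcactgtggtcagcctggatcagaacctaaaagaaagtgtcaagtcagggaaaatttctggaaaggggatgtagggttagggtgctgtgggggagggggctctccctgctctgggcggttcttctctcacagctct

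Of the 8 genes of resident and scavenging macrophages, 5 passed the test in no comparison. In SIRT5OE TAC hearts none was higher and 1 was lower than in SIRT5OE sham hearts, and in WT TAC hearts 1 was higher and 2 were lower than in WT sham hearts. Their median log2 fold change was 0.03 in SIRT5OE and -0.09 in WT. Retnla, a secreted resistin-like protein made by alternatively activated and resident macrophages, fell most of the 33 genes. It lies at chr16:48842551-48844461 on the plus strand (GRCm38). Retnla had 60.2, 60.5, 7.78 and 53.3 in SIRT5OE TAC hearts, against 289.8, 274 and 204 in SIRT5OE sham hearts. It had 19.1, 10.1, 44.7 and 6.91 in WT TAC hearts, against 210.2, 335, 274 and 229 in WT sham hearts. All TAC hearts were far below all sham hearts, and SIRT5OE TAC replicate 3 lay with the lower WT TAC hearts while the other SIRT5OE TAC hearts were above every WT TAC heart. The log2 fold change was -2.79 ± 0.63 in SIRT5OE (limma adjusted p = 0.0209) and -3.94 ± 0.58 in WT (adjusted p = 0.000161). Without SIRT5OE TAC replicate 3 the SIRT5OE value was -2.11 (adjusted p = 0.0303). Its RefSeq window (chr16:48842359-48842608, plus strand) is shown because it carries the same overlapping GAGGAA and AGGAAGT match as C1qc, in capitals, although the gene moved the other way.
Retnla: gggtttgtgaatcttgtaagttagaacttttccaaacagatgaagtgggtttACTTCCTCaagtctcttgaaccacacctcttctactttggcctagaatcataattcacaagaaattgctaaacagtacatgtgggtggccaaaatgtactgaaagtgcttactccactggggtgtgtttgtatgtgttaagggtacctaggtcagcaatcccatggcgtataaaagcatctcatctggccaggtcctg

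Timd4, a phosphatidylserine receptor by which long-lived resident macrophages take up apoptotic cells, had 105, 99.4, 36.3 and 115 in SIRT5OE TAC hearts, against 89.0, 80.1 and 107 in SIRT5OE sham hearts. It had 62.9, 26.6, 93.0 and 47.4 in WT TAC hearts, against 105, 108, 145 and 95.7 in WT sham hearts. WT TAC hearts were below all WT sham hearts, and SIRT5OE TAC replicate 3 was the only SIRT5OE TAC heart below the SIRT5OE sham range. On the log2 scale, TAC against sham gave -0.17 ± 0.41 in SIRT5OE (limma adjusted p = 0.854) and -1.09 ± 0.38 in WT (adjusted p = 0.0359), and the WT call was lost under 8 of the other settings, with adjusted p up to 0.12 without WT TAC replicate 2. F13a1, the A chain of coagulation factor XIII, which tissue macrophages carry, had 3354, 3097, 2367 and 2877 in SIRT5OE TAC hearts, against 2189.8, 2013 and 2148 in SIRT5OE sham hearts. It had 2591, 2891, 3339.6 and 2528 in WT TAC hearts, against 1766, 2063, 2304 and 2125 in WT sham hearts. TAC hearts were above sham hearts in both genotypes. As a log2 fold change this was 0.46 ± 0.13 in SIRT5OE (limma adjusted p = 0.0516) and 0.46 ± 0.12 in WT (adjusted p = 0.00752).

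Lyve1, a hyaluronan receptor of resident macrophages and lymphatic endothelium, had 1164, 1238, 879 and 1102 in SIRT5OE TAC hearts, against 1084, 802 and 1040.0 in SIRT5OE sham hearts. It had 866, 1019.5, 1276 and 1233 in WT TAC hearts, against 837, 938, 1074 and 1078 in WT sham hearts. The groups overlapped in both genotypes, and the log2 fold change was 0.17 ± 0.16 in SIRT5OE (limma adjusted p = 0.585) and 0.15 ± 0.15 in WT (adjusted p = 0.458). Folr2, a folate receptor of resident macrophages, had 863, 646, 305 and 506 in SIRT5OE TAC hearts, against 613, 569 and 571 in SIRT5OE sham hearts. It had 499.9, 445, 706 and 373 in WT TAC hearts, against 579.8, 616, 677 and 502 in WT sham hearts. These groups overlapped too, with SIRT5OE TAC replicates 1 and 3 at opposite ends of their group. TAC and sham hearts differed on the log2 scale by -0.11 ± 0.27 in SIRT5OE (limma adjusted p = 0.855) and -0.26 ± 0.25 in WT (adjusted p = 0.447). The mannose receptor Mrc1, the haemoglobin scavenger receptor Cd163 and the carbonyl reductase Cbr2 passed the test in no comparison either.

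Of the pair of genes that mark monocytes recruited from the blood, Ccr2 was higher in WT TAC hearts and Ly6c2 was not. Ccr2, the receptor for Ccl2, had 519, 459, 393 and 237 in SIRT5OE TAC hearts, against 227, 242 and 237 in SIRT5OE sham hearts. It had 489, 658, 522 and 369 in WT TAC hearts, against 223, 264, 235 and 187 in WT sham hearts. WT TAC hearts were above all WT sham hearts, and SIRT5OE TAC replicate 4 was at the level of its sham hearts while the other SIRT5OE TAC hearts were above them. The log2 fold change was 0.71 ± 0.24 in SIRT5OE (limma adjusted p = 0.0927) and 1.14 ± 0.22 in WT (adjusted p = 0.00107). Ly6c2, a GPI-anchored protein of inflammatory monocytes, had 133, 171, 237 and 238 in SIRT5OE TAC hearts, against 88.9, 149 and 172 in SIRT5OE sham hearts. It had 132, 175, 123 and 137 in WT TAC hearts, against 70.8, 155, 239 and 149.9 in WT sham hearts. Sham and TAC hearts overlapped in both genotypes, and WT sham hearts spread more widely than WT TAC hearts. On the log2 scale, TAC against sham gave 0.52 ± 0.34 in SIRT5OE (limma adjusted p = 0.403) and -0.00 ± 0.32 in WT (adjusted p = 0.995), and without WT sham replicate 3 the WT value was 0.25.

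The 3 genes of lipid-handling macrophages had the highest median log2 fold change of the role groups in WT, 2.03, and a median of 0.77 in SIRT5OE. All 3 were higher in WT TAC hearts, and Trem2 was higher in SIRT5OE TAC hearts. Lgals3, the galactose-binding lectin galectin-3, which is secreted by macrophages, had 379, 224, 753 and 122 in SIRT5OE TAC hearts, against 183, 179 and 160.0 in SIRT5OE sham hearts. It had 589, 1651, 317 and 4316 in WT TAC hearts, against 133, 197, 114 and 165 in WT sham hearts. WT TAC hearts differed greatly among themselves but were all above the WT sham hearts, and SIRT5OE TAC replicate 4 was below all SIRT5OE sham hearts. As a log2 fold change this was 0.77 ± 0.68 in SIRT5OE (limma adjusted p = 0.548) and 2.84 ± 0.63 in WT (adjusted p = 0.00282), and the WT value was 2.17 without WT TAC replicate 4 and 3.43 without WT TAC replicate 3. Gpnmb, a transmembrane glycoprotein of phagocytes that load lipid, had 132, 91.3, 199.7 and 103 in SIRT5OE TAC hearts, against 192, 102 and 110.2 in SIRT5OE sham hearts. It had 160.3, 187, 123 and 207 in WT TAC hearts, against 111, 81.4, 106 and 92.1 in WT sham hearts. The SIRT5OE groups overlapped and the WT groups were narrowly apart. TAC and sham hearts differed on the log2 scale by -0.05 ± 0.29 in SIRT5OE (limma adjusted p = 0.95) and 0.77 ± 0.27 in WT (adjusted p = 0.0357), and the WT call was lost under 8 of the other settings, with adjusted p up to 0.0978 without WT TAC replicate 4.

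Trem2, a lipid-sensing receptor that signals through Tyrobp, had 116, 82.5, 141 and 62.7 in SIRT5OE TAC hearts, against 39.2, 48.7 and 35.7 in SIRT5OE sham hearts. It had 166, 169.9, 129 and 244 in WT TAC hearts, against 41.2, 41.2, 51.3 and 33.9 in WT sham hearts. TAC and sham hearts did not overlap in either genotype, and the lowest WT TAC heart was above all SIRT5OE TAC hearts but replicate 3. The log2 fold change was 1.21 ± 0.29 in SIRT5OE (limma adjusted p = 0.0285) and 2.03 ± 0.27 in WT (adjusted p = 9.26e-05), the smallest adjusted p of the 33 genes in WT. The SIRT5OE call was lost under 8 of the other settings, with adjusted p up to 0.139, and without SIRT5OE TAC replicate 3 the value was 1.03 (adjusted p = 0.0925). Because the reads of Trem2 were shared evenly between 2 IDs, its level here is that of 1 of them. The gene lies at chr17:48346401-48354147 on the plus strand (GRCm38). Its RefSeq window (chr17:48346151-48346400, plus strand) is shown because Trem2 had that smallest adjusted p, and its only match is GAGGAA on the opposite strand, in capitals.
Trem2: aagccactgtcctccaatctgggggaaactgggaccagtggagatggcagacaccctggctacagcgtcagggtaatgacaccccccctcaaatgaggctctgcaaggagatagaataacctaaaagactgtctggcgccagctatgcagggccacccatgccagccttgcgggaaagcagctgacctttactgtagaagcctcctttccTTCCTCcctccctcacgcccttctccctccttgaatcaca

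**Figure D2:**
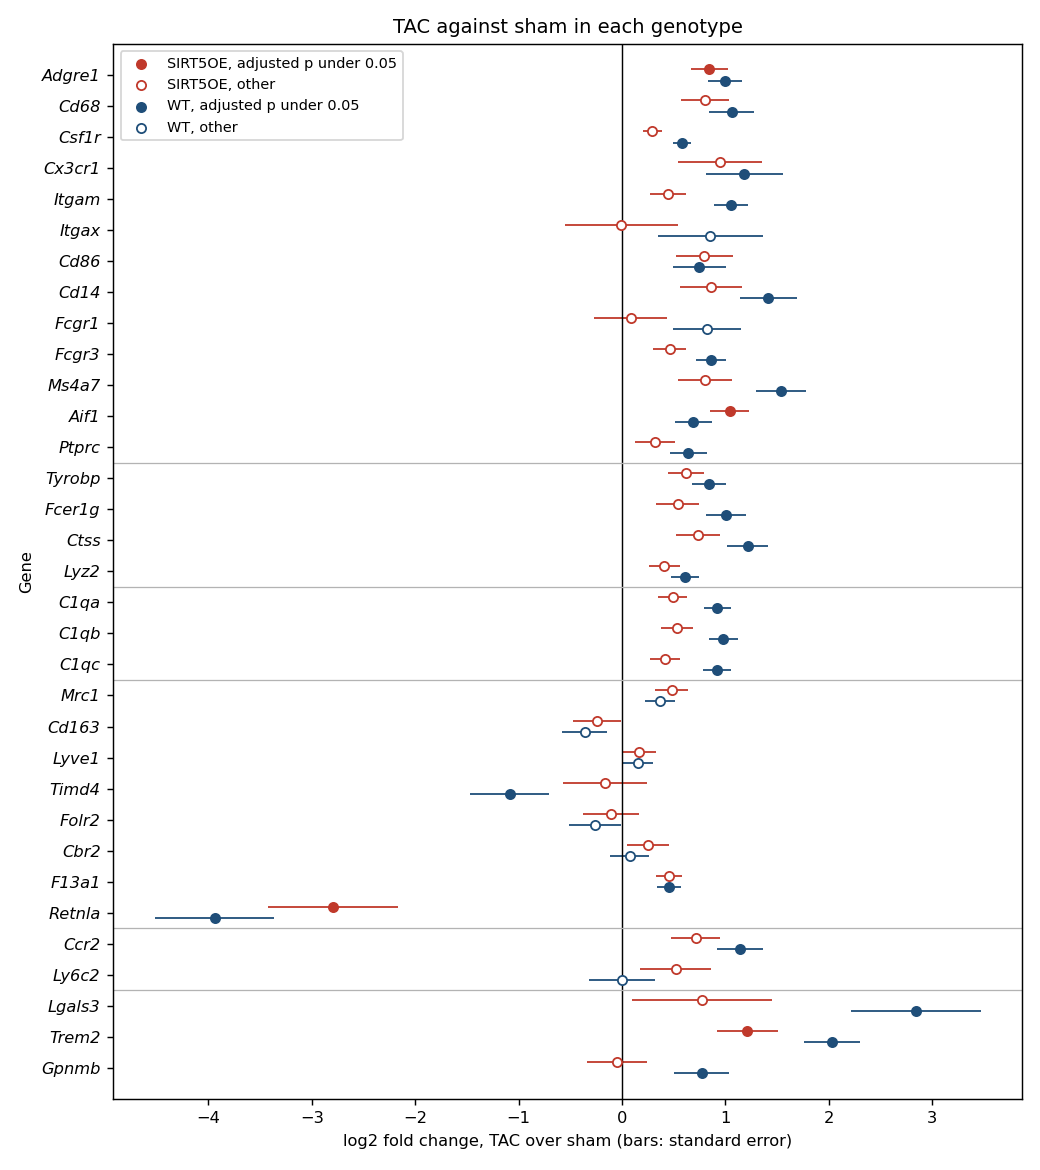
Points give the log2 fold change of TAC over sham for each of the 33 genes in SIRT5OE (red) and WT (blue), bars give the SE, and filled points passed an adjusted p under 0.05. In WT 23 filled points lie to the right of 0 and 2, Retnla and Timd4, to the left, and in SIRT5OE 3 lie to the right and Retnla to the left.

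**Figure D3:**
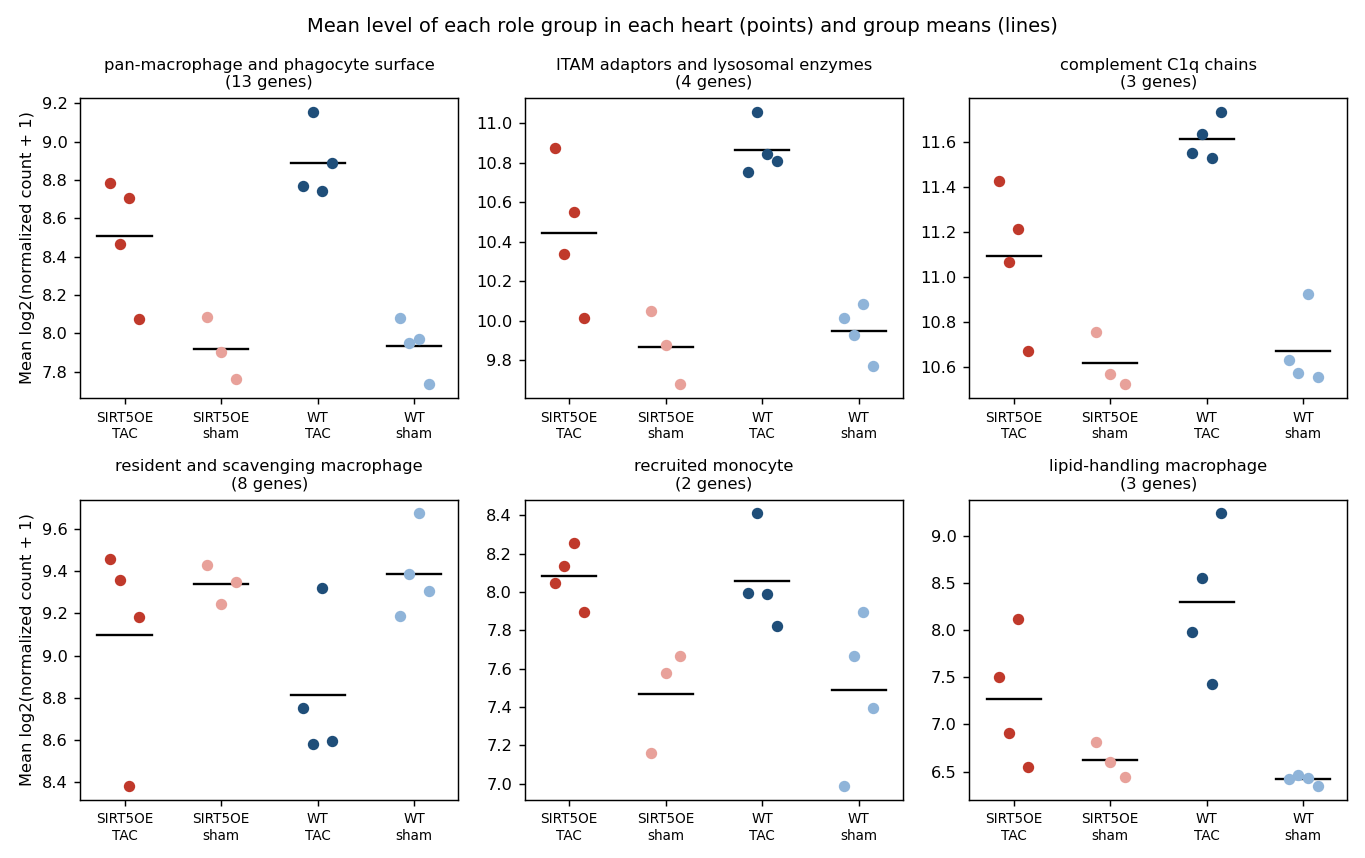
Each point is the mean of log2(normalized count + 1) over the genes of a role group in 1 heart, and lines are the means of the 4 groups of hearts. The C1q chains stand apart between SIRT5OE TAC and WT TAC hearts, and the lowest SIRT5OE TAC heart of the resident group is replicate 3.

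In SIRT5OE TAC against WT TAC hearts, the comparison of genotypes under pressure overload, the C1q chains were lower and no member was higher. That is 3 of the 33 genes lower, where 3.43% of all genes were lower, and 0 higher, where 3.80% were higher. None of the 33 passed with a log2 fold change over 1, where 0.989% of all genes were higher and 0.917% lower. At an unadjusted p under 0.05, for which the share of all genes was not taken, 13 genes were lower and 0 higher. The groups did not overlap for 4 lower genes, the C1q chains and Csf1r (3.94% of all genes), and for 0 higher genes (4.06% of all genes). The median log2 fold change was -0.35, against 0.00 for all genes, and 10 of the 33 values were above 0. C1qa differed by -0.49 ± 0.13 (limma adjusted p = 0.0383), C1qb by -0.52 ± 0.14 (adjusted p = 0.0416) and C1qc by -0.54 ± 0.14 (adjusted p = 0.0349). In each of the chains the highest SIRT5OE TAC heart, replicate 1, was below the lowest WT TAC heart. These calls were lost when the TAC groups were fitted alone (adjusted p = 0.179 for each chain), without the filter on low values (0.0544 to 0.0642) and without the mean-variance trend (0.0675 to 0.0766). They were also lost without SIRT5OE TAC replicate 2, SIRT5OE TAC replicate 4, SIRT5OE sham replicate 2, WT TAC replicate 2 or WT TAC replicate 4, each of which left 0 of the 33 genes called. C1qc alone passed without SIRT5OE sham replicate 3, WT TAC replicate 1, WT sham replicate 1 or WT sham replicate 2. C1qb alone was lost without SIRT5OE sham replicate 1 (limma adjusted p = 0.0513) or WT sham replicate 4 (0.0502), where 1.92% and 2.32% of all genes were lower. Calls over all genes were fewer in these fits as well. The share of all genes that was lower was 0.00625% with the TAC groups alone, 0.364% without the filter, 0.0719% without the trend, 0 to 1.47% in the fits that left 0 of the 33 genes, and 1.6 to 2.94% in those that left C1qc.

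The 10 other genes with an unadjusted p under 0.05 in this comparison were all lower in SIRT5OE TAC hearts and did not pass after adjustment. Csf1r differed by -0.29 ± 0.09 (limma adjusted p = 0.0522). Among the Fc receptor and adaptor genes, Fcgr3 differed by -0.43 ± 0.15 (adjusted p = 0.0721), Fcer1g by -0.54 ± 0.19 (adjusted p = 0.0813) and Tyrobp by -0.42 ± 0.16 (adjusted p = 0.104). The cathepsin gene Ctss differed by -0.56 ± 0.20 (limma adjusted p = 0.0817) and the integrin gene Itgam by -0.35 ± 0.16 (adjusted p = 0.17). Cd14 differed by -0.83 ± 0.28 (limma adjusted p = 0.069) and Ms4a7 by -0.70 ± 0.24 (adjusted p = 0.079). Trem2 differed by -0.84 ± 0.27 (limma adjusted p = 0.064) and Lgals3 by -1.85 ± 0.63 (adjusted p = 0.0739), where the highest of all SIRT5OE TAC hearts was still lower than 2 of the 4 WT TAC hearts. Genes that were close to level between the TAC groups were Adgre1, which differed by -0.10 ± 0.16 (adjusted p = 0.727), and Aif1, by -0.12 ± 0.17 (adjusted p = 0.686). All 8 genes of resident and scavenging macrophages had values above 0, some of them close to 0. Their median was 0.09, none had an unadjusted p under 0.05, and the TAC groups overlapped for each. Whether the sign held under the other settings was followed only for Retnla. Retnla had the largest value of the 8 genes, 1.12 ± 0.58 (limma adjusted p = 0.212).

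**Figure D4:**
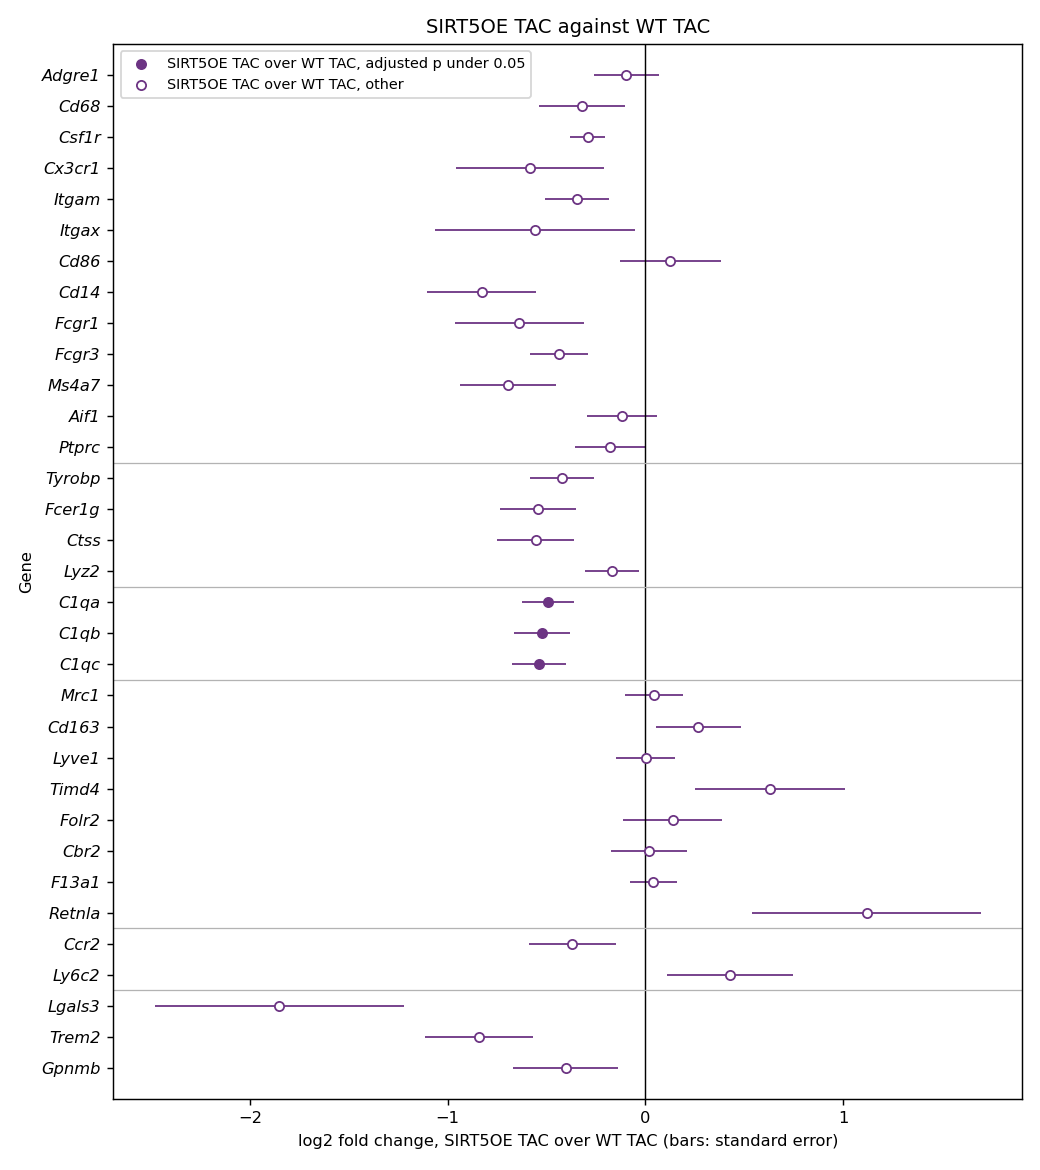
Points give the log2 fold change of SIRT5OE TAC over WT TAC hearts for the 33 genes, bars give the SE, and filled points passed an adjusted p under 0.05. The 3 filled points are the C1q chains, and the 8 genes of the resident group lie at or to the right of 0.

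The hearts of a group differed along the whole set of genes. In SIRT5OE TAC, replicate 1 was the highest of its group for 20 of the 33 genes and replicate 4 the lowest for 21. Replicate 3 was the highest for 8 and the lowest for 9, among them Retnla, Timd4 and Folr2. The summed level of the 33 genes was 29890 to 45089 in SIRT5OE TAC hearts, 25080 to 29748 in SIRT5OE sham hearts, 41067 to 47741 in WT TAC hearts and 25941 to 30012 in WT sham hearts. Without SIRT5OE TAC replicate 3, SIRT5OE TAC hearts had 2 of the genes higher and 8 lower than WT TAC hearts, and the share of all genes was greater too, with 7.79% higher and 8.58% lower. The higher ones were Retnla, with a log2 fold change of 1.80 (limma adjusted p = 0.0134), and Timd4. The lower ones were the C1q chains, Cd14, Ctss, Lgals3, Ms4a7 and Trem2. Without WT TAC replicate 3, 10 genes were lower, as were 10.1% of all genes. Against SIRT5OE sham hearts, leaving out SIRT5OE TAC replicate 3 kept Adgre1 (0.82, limma adjusted p = 0.0409) and Aif1 (1.02, adjusted p = 0.0199) as higher and Retnla as lower, added F13a1 (0.55, adjusted p = 0.0297) and lost Trem2, where 1.31% of all genes were higher and 0.535% lower. Without SIRT5OE TAC replicate 4, 13 genes were higher in SIRT5OE TAC than in SIRT5OE sham hearts, where 2.94% of all genes were. There were 9 without WT TAC replicate 3 (4.22% of all genes), 7 without WT TAC replicate 4 (4.1%), 5 when WT TAC replicate 2 was left out (3.56%) and 5 without SIRT5OE TAC replicate 2 (3.36%). There was 1 without SIRT5OE sham replicate 1 (0.739% of all genes) and 0 without SIRT5OE sham replicate 3 (0.584%). The call of Adgre1 was lost without SIRT5OE sham replicate 1 (limma adjusted p = 0.0701) or 3 (0.0894), that of Aif1 without SIRT5OE sham replicate 3 (0.0536), and that of Retnla without any of the SIRT5OE sham hearts (0.069 to 0.0928). When hearts were weighted by how well they followed their group, 18 were higher in SIRT5OE TAC than in SIRT5OE sham hearts, and 7% of all genes. Of the 25 calls in WT, 21 held under every setting tried, the exceptions being Cd86, Cx3cr1, Gpnmb and Timd4. None of the 4 calls in SIRT5OE and none of the 3 calls between the TAC groups did.

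**Figure D5:**
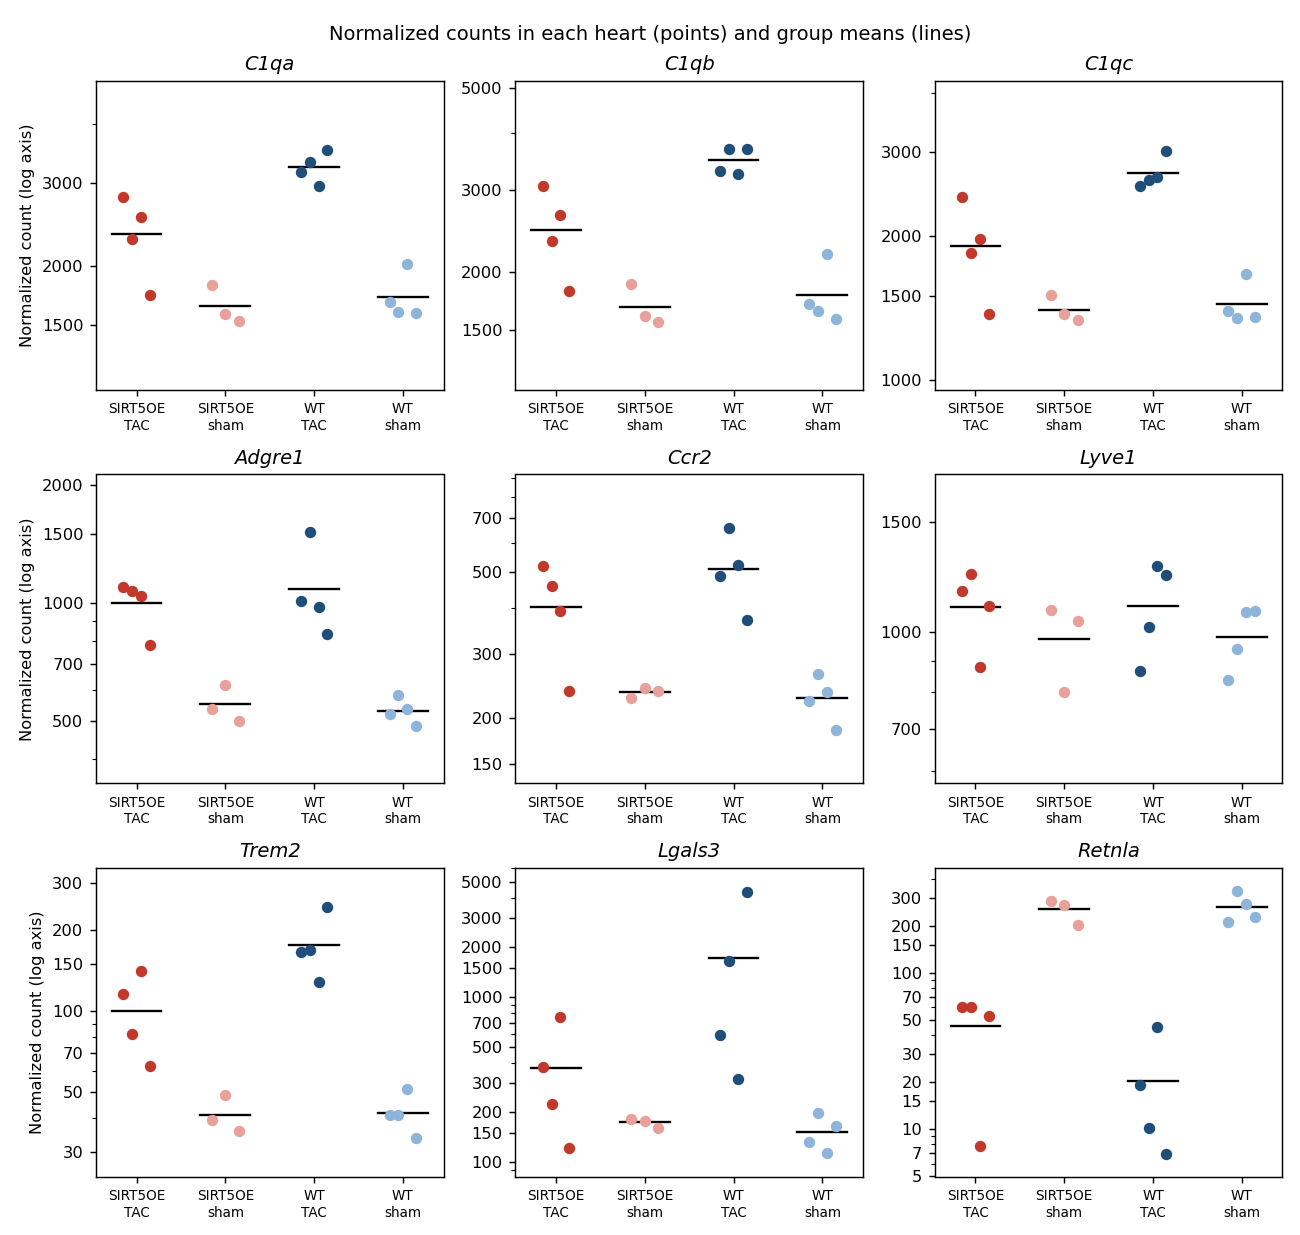
Points are the normalized counts of 9 of the genes in each heart, on a log axis, and lines are group means. C1q chains of SIRT5OE TAC hearts lie below those of WT TAC hearts, the 4 groups of Lyve1 overlap, and 1 SIRT5OE TAC heart has a Retnla value of 7.78 where the other 3 have 53.3 to 60.5.

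Between the sham groups, none of the 33 genes passed the test, where 3 genes, or 0.0180% of all, did. Aif1 alone had an unadjusted p under 0.05. It had 88.6, 88.5 and 78.8 in SIRT5OE sham hearts, against 129, 119, 108 and 118 in WT sham hearts. The groups did not overlap, and the share of all genes without overlap between the sham groups was not taken. The log2 fold change was -0.47 ± 0.19 (limma adjusted p = 1). In the interaction, which asks whether the change with TAC in SIRT5OE differed from that in WT, none of the 33 genes passed, and 0% of all genes did. At an unadjusted p under 0.05 there were 6 of the 33, all with negative values. C1qc had -0.50 ± 0.20 (limma adjusted p = 0.349), Itgam -0.60 ± 0.24 (adjusted p = 0.349) and Lgals3 -2.07 ± 0.93 (adjusted p = 0.367), and the others were C1qa, C1qb and Csf1r.

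Per kilobase of exon in the annotation, the highest mean levels in WT sham hearts were those of Lyz2 (5755 normalized counts per kb), C1qa (1656), C1qb (1634) and C1qc (746). The lowest were those of Itgax (8.74) and Trem2 (8.47, for 1 of its 2 IDs). Some genes share sequence with others, and their values are less certain. Itgam overlaps Gm49368 on the same strand, with 99.9% identity over 3454 bases. The mean of Gm49368 was 2.14 in SIRT5OE TAC hearts, 4.32 in SIRT5OE sham hearts, 11.4 in WT TAC hearts and 26.9 in WT sham hearts, small beside Itgam. Ly6c2 is 97.6% identical to Ly6c1, whose mean level lay between 6754 and 8489 in the 4 groups, far above that of Ly6c2. Lyz2 is 95.8% identical to Lyz1 over the parts that align. Folr2 and Csf1r each overlap a gene on the opposite strand.

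Other macrophage genes were read from 4 further lists. Beside their counts, 3.12% of all genes were higher and 1.86% lower in SIRT5OE, and 17.3% and 16.5% in WT. The interaction called 0% of all genes, so the counts of the genotypes were not shown to differ in these lists either. Of 16 growth factors and transcription factors of the lineage, 0 were higher in SIRT5OE TAC than in SIRT5OE sham hearts and 9 were higher in WT TAC than in WT sham hearts. Runx1, a factor of blood cell development that also acts in stressed heart muscle, changed by 2.46 ± 0.37 in WT (limma adjusted p = 0.000197), Cebpa, a myeloid factor, by 0.81 ± 0.18 (adjusted p = 0.00265) and Irf8, a factor of monocytes, by 0.68 ± 0.15 (adjusted p = 0.00265). Of 17 tested phagocytic and complement receptors, 2 were higher in SIRT5OE and 14 in WT. In WT they included C5ar1, the receptor for C5a (0.93 ± 0.16, limma adjusted p = 0.000477), and Axl, a receptor for dying cells (0.91 ± 0.17, adjusted p = 0.000818). Fcgr2b, the inhibitory IgG receptor, differed by -0.71 ± 0.18 between SIRT5OE TAC and WT TAC hearts (adjusted p = 0.0345). Of 25 other macrophage genes, 4 were higher and 1 lower in SIRT5OE, and 13 were higher and 5 lower in WT. Cd9, a tetraspanin, was higher in WT TAC hearts (1.00 ± 0.12, limma adjusted p = 5.88e-05), as was Vcan, the matrix proteoglycan versican, which fibroblasts also make (2.28 ± 0.29, adjusted p = 6.69e-05). Of the same list, the iron exporter Slc40a1 fell in WT (-2.15 ± 0.28, limma adjusted p = 7.35e-05) and was higher in SIRT5OE TAC hearts when set against WT TAC hearts (0.95 ± 0.28, adjusted p = 0.0496). The lipid carrier Apoe was lower in SIRT5OE TAC hearts when set against WT TAC hearts (-0.46 ± 0.11, limma adjusted p = 0.0342). Of 10 monocyte chemokines, 0 were higher in SIRT5OE and 4 in WT. They included Ccl8 (1.26 ± 0.36, limma adjusted p = 0.0131), and Cx3cl1, the ligand of Cx3cr1 (1.58 ± 0.30, adjusted p = 0.000967). Between the TAC groups Cx3cl1 was lower in SIRT5OE (-1.29 ± 0.30, limma adjusted p = 0.0331).

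Several of the 33 genes are also carried by other cells, so markers of those cells were read beside them. Of all genes, 3.12% were higher and 1.86% lower in SIRT5OE, and 17.3% and 16.5% in WT. Between the TAC groups 3.80% of all genes were higher and 3.43% lower in SIRT5OE. Of 6 tested neutrophil genes, 0 were higher in SIRT5OE TAC than in SIRT5OE sham hearts and 4 were higher in WT TAC than in WT sham hearts, led by Retnlg (2.64 ± 0.61, limma adjusted p = 0.00356) and S100a9 (1.35 ± 0.36, adjusted p = 0.00881). The sum of the neutrophil list was 230.3 to 352 in SIRT5OE TAC hearts, 126 to 196 in SIRT5OE sham hearts, 412 to 694 in WT TAC hearts and 191 to 462 in WT sham hearts. Its defining marker Ly6g was under 1 in every SIRT5OE TAC and WT sham heart, but not throughout the WT TAC or SIRT5OE sham hearts. Between the TAC groups 1 neutrophil gene passed, Retnlg, which was lower in SIRT5OE (-2.47 ± 0.61, limma adjusted p = 0.0345), and 5 of the 6 were lower at an unadjusted p under 0.05, with a median of -0.95. No gene of the T cell, B cell, dendritic cell or mast cell lists passed the test in TAC against sham hearts of either genotype. Of 5 natural killer cell genes tested, Klrd1 was higher in WT, and of 8 endothelial genes Kdr was lower in WT, while 0 of either list changed in SIRT5OE. Of 6 genes of lymphatic endothelium, which shares Lyve1, 0 changed in SIRT5OE and 4 were higher and 1 lower in WT. Their sum was 6989 to 8001 in SIRT5OE TAC hearts, 7047 to 7718 in SIRT5OE sham hearts, 6158 to 9567 in WT TAC hearts and 6069 to 8224 in WT sham hearts. Of 8 fibroblast genes, 4 were higher in SIRT5OE and 6 in WT, and between the TAC groups Col1a2 was lower in SIRT5OE (-1.06 ± 0.30, limma adjusted p = 0.0471). Their sum was 131116 to 219102 in SIRT5OE TAC hearts, 103211 to 119221 in SIRT5OE sham hearts, 161587 to 244918 in WT TAC hearts and 101416 to 114100 in WT sham hearts. Of 8 cardiomyocyte genes, 0 changed in SIRT5OE, and 1 was higher and 6 were lower in WT. Summed, they had 2168940 to 3152810 in SIRT5OE TAC hearts, 3028830 to 3230050 in SIRT5OE sham hearts, 1369280 to 2570370 in WT TAC hearts and 3011670 to 3636840 in WT sham hearts. Between the TAC groups none of the cardiomyocyte genes passed, with 5 higher in SIRT5OE at an unadjusted p under 0.05, and none of the lists of other cells beyond neutrophils and fibroblasts had a call. No gene of the lymphatic, fibroblast or cardiomyocyte lists was under 1 throughout a group. The part of these cells in the results for the 33 genes was not tested.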

How the data were processed

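RNA from 15 whole hearts, each a library of its own, was depleted of ribosomal RNA and sequenced on a HiSeq4000. Reads were checked by the authors with FastQC and assigned to transcripts of Ensembl mouse release 101 with kallisto, of which the study's methods name 0.46.0 and the submitters' processing notes 0.43.1. The authors then used tximport to get gene values and DESeq2 to normalize them. The deposited signal values are these normalized counts. A model of reads was not used, since only 6.99 to 35.5% of a library's low values above 0 were whole multiples (within 0.02) of its most common low value. Depth in reads is thus not known, and precision is set by the number of hearts. Library strand is not given in the sources used here.

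Genes with at least 10 normalized counts in at least 3 hearts were taken as log2(normalized count + 1), so that changes of low genes are understated. The model of limma 3.58.1 was run under R 4.3.3 (4 group means, all 15 hearts, eBayes with trend, two-sided), with Benjamini-Hochberg adjustment over all kept genes and a threshold of 0.05. The study's further threshold of an absolute log2 fold change over 1 is given beside it. There were 5 comparisons. The 33 genes, their role groups and the other lists were chosen with earlier results of these data known. Genes with values in the text passed the test or had a log2 fold change over 1 in a comparison, plus 3 others (Lyve1, Folr2, Ly6c2). Of other lists, genes among the 3 of smallest adjusted p in WT TAC against WT sham or in SIRT5OE TAC against WT TAC are named. Alternatives were pseudocounts of 0.5 and 5, no filter, at least 50 in at least 4 hearts, quantile and upper-quartile scaling, a fit of only the hearts compared, a replicate block, array weights, no trend and each heart left out in turn. The fit was tested on simulated data. Positions are from GENCODE vM21 (GRCm38), copies were sought with blastn 2.17.0, and plots were made with matplotlib 3.10.9 in Python 3.11.15. Other experiments of the study were not analysed here.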

Additional observations from a re-analysis of the deposited data

Results flagged for a closer look

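In the groups of 4 hearts, the highest or lowest heart was compared with the nearest of the others for each of the 33 genes, and its gap divided by the range of the group was above Dixon's 95% critical value of 0.829 in 7 of 99 groups, where chance gives about 5%. Retnla had 7.78 normalized counts in SIRT5OE TAC replicate 3, with 53.3 to 60.5 in the other hearts of that group. Ptprc had 546 in SIRT5OE TAC replicate 3, with 575 to 579.9 in the others, and 991 in WT TAC replicate 2, with 539 to 575 in the others. In WT sham replicate 3, Cx3cr1 had 156, with 219 to 222 in the others, C1qc had 1664, with 1346 to 1397 in the others, and Cbr2 had 1045, with 623 to 674 in the others. Cd86 had 247 in WT sham replicate 1, with 93.7 to 111 in the others.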

How the results depend on the processing

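The WT counts, 23 higher and 2 lower, were 10 and 2 with a log2 fold change over 1, and the lower count was 1 without a filter. Leaving out each heart gave 20 to 23 higher and 1 to 2 lower (14.4 to 19.2% and 13.6 to 18.8% of all genes). In SIRT5OE the 3 higher genes became 6 under the stricter filter (4.07% of all genes) and 18 with array weights (7%). With a heart left out they ranged over 0 to 13 (0.584 to 4.22% of all genes), and the 1 lower gene over 0 to 1 (0.174 to 3.01%). Between the TAC groups, the 3 lower genes became 0 without a filter, with the groups alone, without the trend or with a fold change over 1. With a heart left out, lower genes ranged over 0 to 10 and higher genes over 0 to 2. Over all genes the fits with a heart left out called 0 to 1681 lower and 5 to 1691 higher. The sham comparison and the interaction had 0 under all settings. The causes were not tested.

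Direction was followed through the settings only for those genes of the set whose log2 fold change is printed above. The sham comparison and the interaction were not followed in this way, nor was most of the resident group between the TAC groups. Among the followed values, direction turned only in those that were not called. With array weights these were Ly6c2 in WT (0.14) and, in SIRT5OE, Folr2 (0.022) and Gpnmb (0.0052). With a heart left out, Ly6c2 in WT ranged from -0.33 to 0.25, and in SIRT5OE Folr2 from -0.33 to 0.17, Gpnmb from -0.27 to 0.24 and Timd4 from -0.33 to 0.22. Adgre1 between the TAC groups ranged from -0.21 to 0.078.

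No pairing of hearts by replicate number was seen, as deviations of same-numbered hearts correlated at -0.298 to 0.0779 over 21 pairs. The labels give only replicate numbers, so whether hearts shared a litter or a batch of surgery is not known. The replicate block gave 24 higher and 1 lower in WT, 4 and 0 in SIRT5OE, and 0 and 0 between the TAC groups (C1q adjusted p = 0.0656, limma). Of all genes, this fit called 16.4% higher and 15.7% lower in WT, and 1.79% and 0.965% in SIRT5OE. Between the TAC groups the shares of all genes were 0.108% and 0.012%.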
